A study of Mus musculus with 11 samples.

Results

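The endothelin, DLX and HAND genes of lower jaw patterning were followed in RNA from the face of mouse embryos that lacked *Wnt9b*, *Rspo2* or both. The 10 genes were taken by symbol for their known place in this pathway, and all 10 were found by Ensembl identifier among the 38561 genes counted and among the 17317 genes with enough counts to be tested. They are the ligand gene *Edn1*, its receptor gene *Ednra*, the homeobox genes *Dlx1*, *Dlx2*, *Dlx3*, *Dlx5* and *Dlx6*, the basic helix-loop-helix genes *Hand1* and *Hand2*, and the homeobox gene *Gsc*.

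WNT9b is a ligand of canonical WNT signaling made by the facial ectoderm, and RSPO2 is a secreted R-spondin that raises the response of cells to WNT ligands. RNA was sequenced from facial process explants (the mandibular and maxillary processes of the branchial arch together with the nasal processes) at embryonic day 10.5, all of mixed strain. The 11 libraries comprised 2 of wild type (wt), 3 of *Rspo2* homozygous mutants (Rspo2KO), 3 of *Wnt9b* homozygous mutants (Wnt9bKO) and 3 of embryos homozygous for both mutations (DKO). No source used here says whether a library holds 1 embryo or a pool, or whether libraries of a genotype came from separate litters, so that p-values measure only the spread between these samples, which may be technical. The processes were not separated, and a gene used in the lower jaw was therefore measured against RNA of the whole face.

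In the arches, endothelin-1 is secreted by the ectoderm and the mesodermal core of the lower part of the arch and binds the type A endothelin receptor on neural crest cells, which signals through Gq and G11 proteins. This signal is needed for *Dlx5* and *Dlx6*, whose products act with the more widely used *Dlx1* and *Dlx2* to give the lower jaw its identity, and for *Hand2*, which marks the most distal part of the arch. Without the signal, the lower jaw is known to take on features of the upper jaw. *Gsc* is a further target in the arch mesenchyme, *Hand1* overlaps *Hand2* in the distal arch, and *Dlx3* is used in the distal arch and in surface ectoderm.

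The stretches of 250 bases upstream of the start site of *Ednra* and *Hand2* are shown, since *Ednra* passed the test most often among these genes and *Hand2*, the marker of the distal arch, lay below wt in every Rspo2KO library. They are RefSeq sequences (build GRCm38.p6), read 5′ to 3′ on the strand of the gene, for *Ednra* chr8:77724453-77724702 on the minus strand and for *Hand2* chr8:57320733-57320982 on the plus strand. Capitals mark the letters TAATTA (a homeodomain motif) and CATCTG (an E-box, the kind of site that HAND proteins bind).
Ednra: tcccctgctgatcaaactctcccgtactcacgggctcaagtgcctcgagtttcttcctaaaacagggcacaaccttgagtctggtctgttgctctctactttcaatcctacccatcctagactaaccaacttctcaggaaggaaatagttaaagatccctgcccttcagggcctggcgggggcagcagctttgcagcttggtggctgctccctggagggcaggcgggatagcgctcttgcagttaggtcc
Hand2: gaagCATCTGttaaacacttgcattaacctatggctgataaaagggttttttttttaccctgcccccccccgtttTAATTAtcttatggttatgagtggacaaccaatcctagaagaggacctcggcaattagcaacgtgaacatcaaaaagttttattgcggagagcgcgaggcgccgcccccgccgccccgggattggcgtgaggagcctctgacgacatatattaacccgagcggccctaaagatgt

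Both strands were searched for 3 motifs: the homeodomain letters TAATTA, the E-box letters CATCTG and the TCF/LEF letters ATCAAAG, the site through which canonical WNT signaling acts. The *Hand2* window held the E-box starting 246 bases and the homeodomain letters starting 175 bases before the start site, and the *Ednra* window held none of the 3. Of all 32851 promoter windows of this length, 4.84% held the homeodomain letters, 14.44% the E-box and 3.21% the TCF/LEF letters. A window was available for 6 of the 10 genes (*Edn1*, *Ednra*, *Dlx1*, *Dlx2*, *Hand2* and *Gsc*). The TCF/LEF letters were in none of these 6, and besides *Hand2* only *Gsc* held a motif, an E-box starting 210 bases before its start site. Such letters are a description of the sequence and say nothing of whether a factor bound there.

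Total counts per library were 11136166 to 18017344, and levels are given as counts per 1000000 (CPM) after scaling. *Rspo2* stood at 14.8 and 16.0 CPM in wt and between 4.74 and 6.59 CPM in Rspo2KO. The labels of 2 libraries went against it: the library labelled Wnt9bKO 2 had 2.86 CPM of *Rspo2* where Wnt9bKO 1 and 3 had 22.8 and 18.1, and the library labelled DKO 3 had 15.5 CPM where DKO 1 and 2 had 4.17 and 3.67. *Wnt9b* RNA was not lower in the *Wnt9b* mutants, at 16.2 to 23.3 CPM in Wnt9bKO and 18.3 to 20.2 CPM in DKO against 10.8 and 13.4 CPM in wt, so that counts over the whole gene do not check that label. The sexes also differed between genotypes: *Xist* lay between 680 and 1470 CPM in all wt and DKO libraries and between 0.821 and 1.94 CPM in all Rspo2KO and Wnt9bKO libraries, so that sex and genotype cannot be told apart in comparisons of a single mutant with wt or with DKO, nor in the interaction. *Ddx3y*, a gene of the Y chromosome, was at 57.6 to 75.7 CPM in Rspo2KO and Wnt9bKO and at 1.07 and 0.121 CPM in wt. In DKO it was at 0.0587, 0.125 and 4.43 CPM, the last in the library labelled DKO 3. The source of the Y RNA in DKO 3 was not tested. The summed level of small nuclear RNAs was 351.9 to 419.6 CPM in wt and Rspo2KO and 70.13 to 82.73 CPM in Wnt9bKO and DKO. Neural crest mesenchyme markers, which define the labelled tissue, were present throughout, at a summed 628 to 1060 CPM.

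*Ednra* was higher than in wt in both genotypes with a *Wnt9b* mutation, *Dlx5* passed as higher in Wnt9bKO but not in DKO, and no gene of this group passed the test in Rspo2KO. In Wnt9bKO against wt, 2 of the 10 genes passed an adjusted p of 0.05, both of them higher, while 32.8% of all genes tested passed in either direction and 16.8% passed as higher. In DKO against wt, 1 of the 10 passed, as higher, beside 27.5% of all genes in either direction and 14.3% as higher. In Rspo2KO against wt, 0 of the 10 passed by edgeR or by DESeq2, beside 0.0346% and 1.44% of all genes with an adjusted p. DESeq2 gave no adjusted p for *Edn1* and *Hand1* in this comparison, so that it could not call them. By edgeR, 1 of the 10 had an unadjusted p under 0.05. In each comparison that involved *Wnt9b*, the share of these genes that passed was thus below or close to that of all genes, and the counts say nothing particular to the group. A rule after that of the study, a p under 0.05 with a change of more than 1.5-fold, with p taken as unadjusted, was met by 4 of the 10 genes in Wnt9bKO (24.8% of all genes), 1 in Rspo2KO (4.68%) and 2 in DKO (20.4%). The median log2 fold change of the 10 genes was 0.48 in Wnt9bKO, −0.04 in Rspo2KO and 0.23 in DKO, where that of all genes was 0.01, 0 and 0.01.

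**Figure D1:**
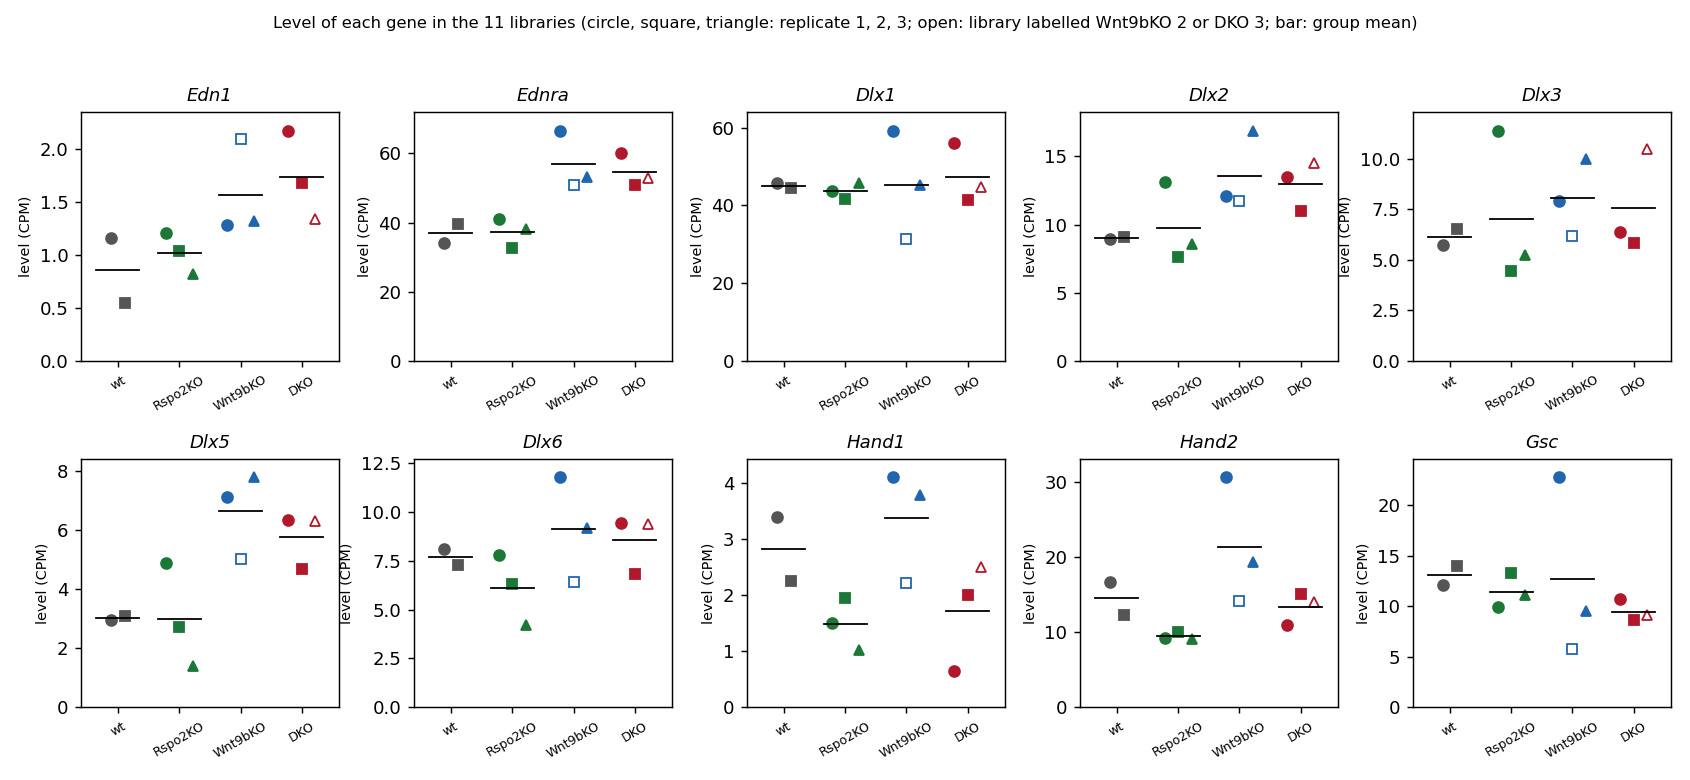
Level in CPM (vertical axes, from 0) of each of the 10 genes in the 11 libraries by genotype; circles, squares and triangles are replicates 1, 2 and 3, open symbols are the libraries labelled Wnt9bKO 2 and DKO 3, and bars are group means. *Ednra* sits at 50.9 to 66.6 CPM in all Wnt9bKO and DKO libraries and at 32.7 to 41.0 CPM in all wt and Rspo2KO libraries, whereas *Dlx1* overlaps between all genotypes.

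*Edn1*, the ligand gene of the pathway (chr13:42301476-42307990, plus strand of GRCm38, 5 exons), was the least abundant of the 10 genes in wt. It stood at 1.16 and 0.544 CPM in wt, at 1.20, 1.03 and 0.821 CPM in Rspo2KO, at 1.28, 2.09 and 1.32 CPM in Wnt9bKO and at 2.17, 1.68 and 1.34 CPM in DKO. Every library with a *Wnt9b* mutation was above every library without one, but the counts behind these levels were only 9 to 37 per library. The log2 fold change against wt was 0.93 ± 0.40 (SE) in Wnt9bKO (adjusted p = 0.0856), 1.09 ± 0.40 in DKO (adjusted p = 0.0538) and 0.32 ± 0.42 in Rspo2KO (adjusted p = 0.806), none of which passed. The paper cites earlier work of its authors in which *Edn1* was reduced in the mandibular process of *Rspo2* mutants. RNA of the whole face at such low counts does not test that result. The DKO value passed under 9 of 21 alternatives, among them that without the libraries labelled Wnt9bKO 2 and DKO 3 (1.24, adjusted p = 0.0321). It was 1.65 without wt 1 and 0.57 without wt 2, so that the estimate moved with which wt library was kept. In Wnt9bKO it likewise was 1.5 without wt 1 and 0.42 without wt 2.

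*Ednra*, the receptor gene (chr8:77663031-77724464, minus strand, 8 exons), gave the clearest separation. Its level was 34.1 and 39.7 CPM in wt, 41.0, 32.7 and 38.0 CPM in Rspo2KO, 66.6, 51.0 and 53.1 CPM in Wnt9bKO, and 60.0, 50.9 and 52.8 CPM in DKO. The Rspo2KO libraries lay around those of wt, and both genotypes with a *Wnt9b* mutation lay wholly above them. *Ednra* was 1.54-fold higher in Wnt9bKO than in wt (log2 fold change 0.62 ± 0.14, adjusted p = 0.00448) and 1.48-fold higher in DKO (0.56 ± 0.14, adjusted p = 0.00999), and it was 1.01-fold in Rspo2KO (0.01 ± 0.14, adjusted p = 0.988). DKO was also above Rspo2KO (0.55 ± 0.13, adjusted p = 0.00747), while DKO and Wnt9bKO differed by −0.06 ± 0.12 (adjusted p = 0.986). Without the 2 libraries whose *Rspo2* counts go against their labels the values were 0.69 in Wnt9bKO (adjusted p = 0.00544), 0.58 in DKO (adjusted p = 0.0154) and 0.58 for DKO against Rspo2KO (adjusted p = 0.0124). Without wt 1, which leaves wt a lone library assumed to vary like the other groups, neither comparison with wt passed (0.51, adjusted p = 0.0679 in Wnt9bKO and 0.45, adjusted p = 0.119 in DKO). The same libraries also stood apart in other RNA: beside the small nuclear RNAs given above, erythroid markers summed to 1740 to 2850 CPM in Wnt9bKO and DKO and to 3950 to 5760 CPM in wt and Rspo2KO, without overlap. The part of that difference between libraries in the *Ednra* values was not tested. In bulk tissue, more cells that make *Ednra* and more *Ednra* RNA per cell cannot be told apart.

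Among the other genes of the endothelin pathway, 11 of 12 had enough counts to be tested (*Edn2* did not). In Wnt9bKO 2 of the 11 were higher and 2 lower than in wt, in DKO 2 were higher and 1 lower, and in Rspo2KO 0 passed in either direction. With 32.8% and 27.5% of all genes called in Wnt9bKO and DKO, these counts are close to the background. *Ednrb*, the gene of the type B endothelin receptor, was at 44.1 and 58.4 CPM in wt, at 67.2, 63.1 and 71.0 CPM in Rspo2KO, at 30.5, 27.0 and 31.9 CPM in Wnt9bKO and at 44.4, 55.9 and 54.7 CPM in DKO. The Wnt9bKO libraries were below all the others, and the DKO libraries overlapped those of wt. *Ednrb* was therefore lower in Wnt9bKO (log2 fold change −0.79 ± 0.14, adjusted p = 0.000799), differed from wt by 0.01 ± 0.14 in DKO (adjusted p = 0.973), and was higher in DKO than in Wnt9bKO (0.79 ± 0.13, adjusted p = 0.0218). That last difference did not pass without the 2 libraries in doubt, nor in 5 of the other 21 alternatives, with values of 0.68 to 0.89 and an adjusted p of up to 0.18. The 2 receptor genes thus stood on opposite sides of wt in Wnt9bKO. Neuronal markers also summed to less in Wnt9bKO (321 to 466 CPM) than in wt (519 and 562), DKO (570 to 611) or Rspo2KO (616 to 689). Of these 8 markers, 1 passed as lower in Wnt9bKO. The part of tissue makeup in the *Ednrb* values was not tested.

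*Ece1*, whose product cleaves the endothelin precursor to the active peptide, was at 43.1 and 47.1 CPM in wt, 48.3 to 56.0 CPM in Rspo2KO, 61.2 to 68.0 CPM in Wnt9bKO and 59.7 to 65.4 CPM in DKO. It was higher in Wnt9bKO (0.53 ± 0.11, adjusted p = 0.00214) and in DKO (0.46 ± 0.11, adjusted p = 0.00585; without wt 1, adjusted p = 0.0902). *Gna11*, which encodes the G11 alpha subunit and had the smallest p of this list in each comparison with wt, was lower in both, from 105 and 107 CPM in wt to 68.3 to 74.2 CPM in Wnt9bKO (−0.59 ± 0.09, adjusted p = 0.00038) and 69.7 to 71.5 CPM in DKO (−0.59 ± 0.09, adjusted p = 0.000464). *Mef2c*, a transcription factor gene downstream of the receptor, rose in DKO by 0.38 ± 0.12 (adjusted p = 0.0307), and stood at 0.22 ± 0.12 in Wnt9bKO (adjusted p = 0.177). The DKO call of *Mef2c* was lost under 6 of 22 alternatives, and with an offset for GC content and length its log2 fold change was 0.07 (adjusted p = 0.764), or 0.05 with the replicate number as a block as well (adjusted p = 0.824).

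**Figure D2:**
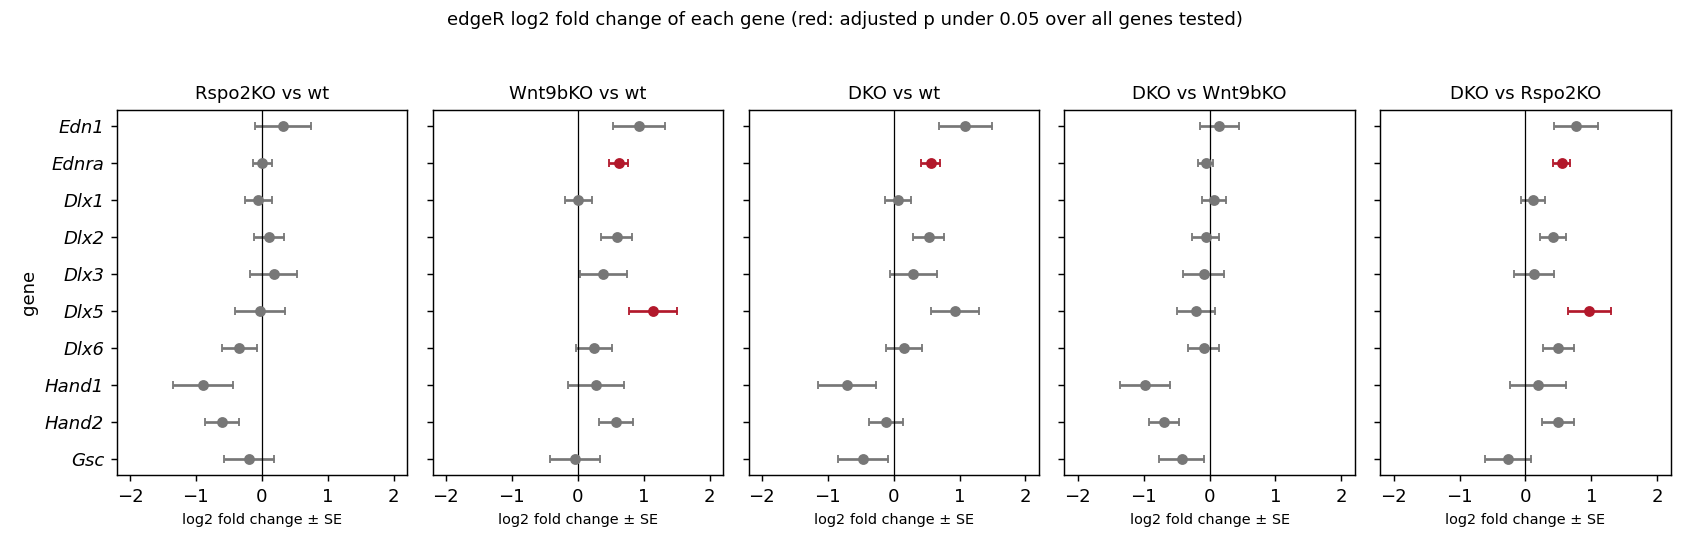
Log2 fold change (horizontal axes) of the 10 genes (vertical axis) in 5 comparisons; points are edgeR estimates, bars their standard errors, and red marks an adjusted p under 0.05 over all genes tested. *Ednra* is red in 3 panels and *Dlx5* in 2, and *Hand1* and *Hand2* lie left of 0 in Rspo2KO against wt and in DKO against Wnt9bKO without passing.

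Of the 5 DLX genes, *Dlx5* (chr6:6877805-6882085, minus strand, 3 exons) was the only one that passed any test at the main setting. Its level was 2.95 and 3.08 CPM in wt, 4.87, 2.73 and 1.39 CPM in Rspo2KO, 7.13, 5.01 and 7.80 CPM in Wnt9bKO, and 6.34, 4.67 and 6.31 CPM in DKO. All Wnt9bKO and DKO libraries were above both wt libraries, and the Rspo2KO libraries spread to both sides of wt. *Dlx5* was 2.2-fold higher in Wnt9bKO (log2 fold change 1.14 ± 0.36, adjusted p = 0.0269) and 1.96-fold higher in DKO than in Rspo2KO (0.97 ± 0.32, adjusted p = 0.0472), although Rspo2KO 1 lay within the DKO range. In DKO against wt it was 0.93 ± 0.37 (adjusted p = 0.0709 by edgeR; 0.044 by DESeq2). Both adjusted p-values were close to the threshold. The Wnt9bKO call was lost without wt 1 (1.10, adjusted p = 0.137), without wt 2 (1.17, adjusted p = 0.128) and without Wnt9bKO 3 (1.03, adjusted p = 0.0711), where the estimate itself moved little. The call against Rspo2KO was lost under 10 of 22 alternatives, among them those without wt 1 (0.95, adjusted p = 0.0732) or with only the compared groups in the fit (0.99, adjusted p = 0.0529), and its estimate lay between 0.62 without Rspo2KO 3 (adjusted p = 0.183) and 1.48 without Rspo2KO 1. Without the 2 libraries in doubt the Wnt9bKO value was 1.30 (adjusted p = 0.0201) and the value against Rspo2KO 0.91 (adjusted p = 0.0865).

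*Dlx6*, which lies beside *Dlx5* (chr6:6863334-6868568, plus strand, 3 exons), had levels of 8.13 and 7.31 CPM in wt, 7.79, 6.31 and 4.23 CPM in Rspo2KO, 11.8, 6.44 and 9.18 CPM in Wnt9bKO, and 9.46, 6.85 and 9.41 CPM in DKO. Every mutant genotype overlapped wt, with log2 fold changes of 0.25 ± 0.27 in Wnt9bKO (adjusted p = 0.504), −0.34 ± 0.27 in Rspo2KO (adjusted p = 0.661) and 0.16 ± 0.27 in DKO (adjusted p = 0.707). The ratio of *Dlx5* to *Dlx6*, each per kb of exon, was 0.381 and 0.442 in wt, 0.656, 0.454 and 0.345 in Rspo2KO, 0.636, 0.816 and 0.892 in Wnt9bKO, and 0.704, 0.716 and 0.704 in DKO. In Wnt9bKO and DKO all 6 ratios were above both wt ratios, so that *Dlx5* differed more from wt than *Dlx6* did within the same libraries. The ratio was not tested. *Dlx6os1*, the noncoding RNA gene of the same locus, was at 31.9 and 37.3 CPM in wt, 53.1, 34.9 and 47.0 CPM in Wnt9bKO (0.38 ± 0.19, adjusted p = 0.145) and 57.9, 36.7 and 43.5 CPM in DKO (0.41 ± 0.19, adjusted p = 0.126).

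*Dlx2* and *Dlx1* form the other DLX pair measured here, on chromosome 2, and are used in both the upper and the lower jaw. The level of *Dlx2* was 8.93 and 9.12 CPM in wt, 13.1, 7.65 and 8.59 CPM in Rspo2KO, 12.1, 11.7 and 16.9 CPM in Wnt9bKO, and 13.5, 11 and 14.5 CPM in DKO. The Wnt9bKO and DKO libraries were all above wt, with 0.59 ± 0.23 in Wnt9bKO (adjusted p = 0.0641) and 0.53 ± 0.23 in DKO (adjusted p = 0.105), neither of which passed. *Dlx1* was at 45.6 and 44.5 CPM in wt, 43.7, 41.5 and 45.8 CPM in Rspo2KO, 59.2, 31.3 and 45.2 CPM in Wnt9bKO, and 56.0, 41.4 and 44.7 CPM in DKO. It overlapped wt in every mutant genotype, with 0.01 ± 0.20 in Wnt9bKO (adjusted p = 0.981), −0.05 ± 0.20 in Rspo2KO (adjusted p = 0.957) and 0.07 ± 0.20 in DKO (adjusted p = 0.819). The lowest and the highest of its 11 levels were both in Wnt9bKO, in the library labelled Wnt9bKO 2 and in Wnt9bKO 1.

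*Dlx3* was at 5.72 and 6.52 CPM in wt, 11.4, 4.43 and 5.24 CPM in Rspo2KO, 7.93, 6.20 and 10 CPM in Wnt9bKO, and 6.40, 5.85 and 10.5 CPM in DKO. The highest library of each mutant genotype was at 10 CPM or more, but each group overlapped wt (0.39 ± 0.36 in Wnt9bKO, adjusted p = 0.433; 0.18 ± 0.36 in Rspo2KO, adjusted p = 0.887; 0.30 ± 0.36 in DKO, adjusted p = 0.571). *Dlx4*, its neighbor and partner in the distal arch, was near 1 CPM throughout (0.477 to 1.32 CPM) and did not pass in any comparison with wt (adjusted p = 0.847 to 0.969).

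**Figure D3:**
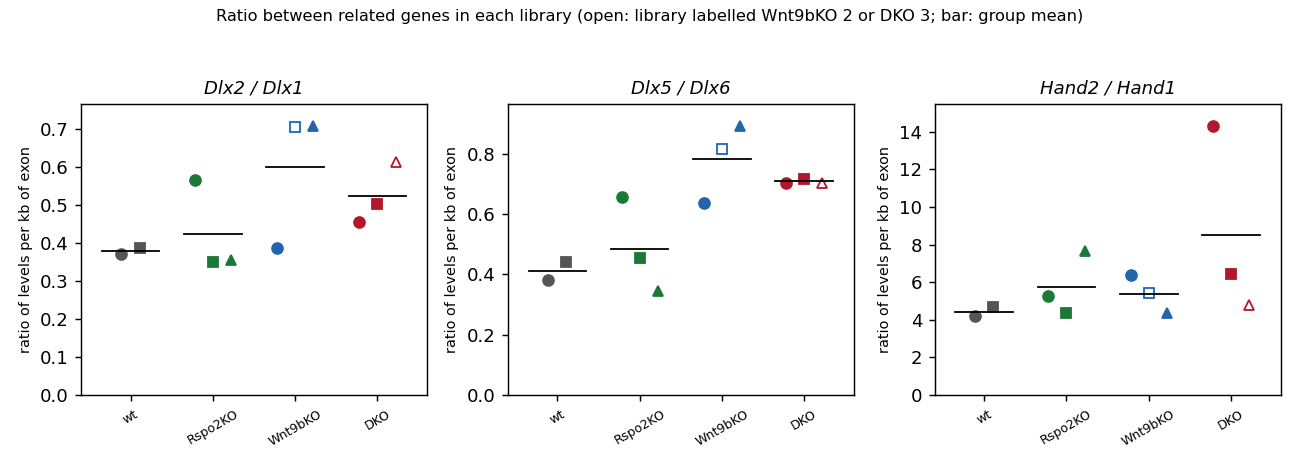
Ratio of levels per kb of exon (vertical axes, from 0) between related genes in each of the 11 libraries by genotype, with symbols as in the plot of levels by library and bars for group means. The *Dlx5* to *Dlx6* ratio is 0.636 to 0.892 in Wnt9bKO and 0.704 to 0.716 in DKO against 0.381 and 0.442 in wt, and the *Hand2* to *Hand1* ratio reaches 14.3 in DKO 1, where *Hand1* had 11 counts.

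DLX genes are also used in the forebrain, and forebrain markers moved in the same libraries. The summed level of 10 such genes was 61.4 and 72.4 CPM in wt, 76.4 to 102 CPM in Rspo2KO, 109 to 188 CPM in Wnt9bKO and 105 to 140 CPM in DKO. Of these, 8 of the 10 were higher in each of Wnt9bKO and DKO, beside 16.8% and 14.3% of all genes. *Gsx2*, a marker of the ventral forebrain where DLX genes are switched on, was at 1.61 and 0.604 CPM in wt and at 2.12 to 3.70 CPM in Wnt9bKO and DKO. Within Wnt9bKO the forebrain sum was highest in Wnt9bKO 2 (188 CPM), where *Dlx5* (5.01 CPM) and *Dlx2* (11.7 CPM) were lowest. Within Rspo2KO the sum (102 CPM), *Dlx5* (4.87 CPM) and *Dlx2* (13.1 CPM) were all highest in Rspo2KO 1. Within DKO the sum (140 CPM) and *Dlx5* (6.34 CPM) were highest in DKO 1, and *Dlx2* (14.5 CPM) in DKO 3. The part of forebrain RNA in the *Dlx5* and *Dlx2* values was not tested.

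*Hand2* (chr8:57320983-57324633, plus strand, 2 exons), which is needed for the distal lower jaw, had estimates on opposite sides of wt in the single mutants, neither of which passed the test. It was at 16.7 and 12.3 CPM in wt, 9.29, 10 and 9.10 CPM in Rspo2KO, 30.7, 14.1 and 19.4 CPM in Wnt9bKO, and 10.9, 15.1 and 14.0 CPM in DKO. All 3 Rspo2KO libraries were below both wt libraries, while Wnt9bKO and DKO overlapped wt. The log2 fold change against wt was −0.60 ± 0.26 in Rspo2KO (adjusted p = 0.382; the unadjusted p was under 0.05), 0.58 ± 0.26 in Wnt9bKO (adjusted p = 0.103) and −0.11 ± 0.26 in DKO (adjusted p = 0.786). In Wnt9bKO the value was 0.80 without the 2 libraries in doubt (adjusted p = 0.0181), and it also passed under 4 other alternatives, up to 0.83 without Wnt9bKO 2 alone (adjusted p = 0.0135). It was 0.36 without wt 2 (adjusted p = 0.487) and 0.22 without Wnt9bKO 1, the lowest of its values. Of the exon bases of *Hand2*, 19.6% (461 bases) lie on the opposite strand of exons of *Hand2os1*, and since the strand setting of the counting is not given, reads of this pair of genes cannot be told apart there.

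*Hand1* was at 3.39 and 2.24 CPM in wt, 1.5, 1.94 and 1.01 CPM in Rspo2KO, 4.10, 2.21 and 3.78 CPM in Wnt9bKO, and 0.646, 1.99 and 2.49 CPM in DKO. As for *Hand2*, all Rspo2KO libraries were below both wt libraries, on 16 to 32 counts each, and Wnt9bKO and DKO overlapped wt. The log2 fold change was −0.89 ± 0.45 in Rspo2KO (adjusted p = 0.452), 0.28 ± 0.42 in Wnt9bKO (adjusted p = 0.635) and −0.70 ± 0.44 in DKO (adjusted p = 0.26; −0.30 without DKO 1).

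Both HAND genes are also known in the heart, and the wt library with the higher level of each, wt 1, held heart RNA. The summed level of 11 heart genes was 87.6 CPM in wt 1, against 10.9 CPM in wt 2 and a range of 3.93 to 12.3 CPM over the 9 mutant libraries. All 11 were highest in wt 1, from *Actc1* at 24.5 CPM to *Nkx2-5* at 0.625 CPM. Of the 5 that could be tested, 5 were lower in Wnt9bKO and in DKO than in wt, beside 16% and 13.1% of all genes. Without wt 1, *Hand2* in Rspo2KO was −0.37 (adjusted p = 0.978) and *Hand1* −0.58 (adjusted p = 0.978). The part of heart RNA in the HAND levels of wt 1 was not tested further.

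*Gsc* was the most abundant of the 10 genes per kb of exon in wt. It was at 12.1 and 14.0 CPM in wt, 9.96, 13.3 and 11.1 CPM in Rspo2KO, 22.8, 5.72 and 9.48 CPM in Wnt9bKO, and 10.7, 8.59 and 9.10 CPM in DKO. The DKO libraries were all below both wt libraries, and the Wnt9bKO libraries held both the highest and the lowest level of all 11. None of its comparisons with wt passed (−0.04 ± 0.38 in Wnt9bKO, adjusted p = 0.95; −0.19 ± 0.38 in Rspo2KO, adjusted p = 0.884; −0.46 ± 0.38 in DKO, adjusted p = 0.401). The estimate in Wnt9bKO moved with the library left out: it was −0.78 without Wnt9bKO 1 (adjusted p = 0.0157), 0.33 without Wnt9bKO 2, and 0.30 without the 2 libraries in doubt (adjusted p = 0.471).

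The DKO embryos were next set against each single mutant, the comparisons that ask what the loss of the other gene adds. In DKO against Wnt9bKO, 0 of the 10 genes passed by edgeR or by DESeq2, 2 had an unadjusted p under 0.05, and 0.121% of all genes passed. The 2 were *Hand2* (−0.69 ± 0.23, adjusted p = 0.532) and *Hand1* (−0.98 ± 0.38, adjusted p = 0.736), and both also met the rule of unadjusted p and fold change, as did 2.93% of all genes. For both HAND genes the libraries of DKO and Wnt9bKO overlapped, *Hand2* because the library labelled Wnt9bKO 2 lay within the DKO range, and *Hand1* because that library was below the library labelled DKO 3. Without these 2 libraries the differences were −0.96 ± 0.23 for *Hand2* (adjusted p = 0.242) and −1.59 ± 0.41 for *Hand1* (adjusted p = 0.325), and still did not pass. With 1 library left out, the smallest differences were −0.33 for *Hand2*, without Wnt9bKO 1, and −0.59 for *Hand1*, without DKO 1. Without the filter on low counts *Hand2* passed (−0.68, adjusted p = 0.00647).

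In DKO against Rspo2KO, 2 of the 10 genes passed, *Ednra* and *Dlx5*, both higher, beside 18.2% of all genes in either direction and 9.15% as higher, and 2 met the rule of unadjusted p and fold change, *Edn1* and *Dlx5*, beside 12.2% of all genes. *Edn1* in this comparison was 0.77 ± 0.33 (adjusted p = 0.12), with no overlap between the libraries. *Hand2* was likewise without overlap, at 0.49 ± 0.24 (adjusted p = 0.174). *Dlx5* overlapped, as did the remaining 6 genes, which ran from *Gsc* at −0.27 to *Dlx6* at 0.50. The share of all genes without overlap was not counted.

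The interaction is the departure of DKO from the sum of the changes in the single mutants on the log2 scale. It passed for 0 of the 10 genes by edgeR and by DESeq2, beside 0.0635% and 0.221% of all genes with an adjusted p. By edgeR, 0 of the 10 had an unadjusted p under 0.05. The interaction values ran from −0.26 ± 0.48 for *Dlx3* to 0.25 ± 0.36 for *Dlx6*, with adjusted p-values of 0.854 to 0.977. The standard errors, from 0.19 for *Ednra* to 0.60 for *Hand1*, limit what departure could have been seen, and an interaction that misses the threshold does not show that the effects add up.

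Per kb of exon, mean levels in wt ran in the order *Gsc* (10.3 CPM per kb), *Dlx1* (8.35), *Ednra* (6.74), *Hand2* (6.16), *Dlx6* (3.25), *Dlx2* (3.16), *Dlx3* (2.35), *Hand1* (1.41), *Dlx5* (1.33) and *Edn1* (0.399). With SDs over the 2 wt libraries of 1.34 for *Hand2* and 0.719 for *Ednra*, this pair of neighbors did not differ beyond its spread, nor did *Dlx6* and *Dlx2* (0.244 and 0.0469) or *Hand1* and *Dlx5* (0.41 and 0.0416). In Wnt9bKO *Ednra* came first, at 10.4 ± 1.54 CPM per kb (SD, n = 3), ahead of *Gsc* at 9.99 ± 7.07 and *Hand2* at 9.11 ± 3.62, which did not differ beyond their spread. *Dlx5* in Wnt9bKO was at 2.94 ± 0.644 CPM per kb and *Dlx6* at 3.84 ± 1.12. The widest range over the 11 libraries was that of *Hand1*, whose highest level was 6.35 times its lowest, followed by *Dlx5* at 5.61 times, and the narrowest was that of *Dlx1* at 1.89 times.

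The libraries of Wnt9bKO were ranked for each of the 10 genes. The library labelled Wnt9bKO 2, in which *Rspo2* was at 2.86 CPM, had the lowest level of the 3 Wnt9bKO libraries for 9 of the 10 genes and the highest for the remaining one, *Edn1*. Wnt9bKO 1 was highest for 6 of the 10 and Wnt9bKO 3 for 3 (*Dlx2*, *Dlx3* and *Dlx5*). The share of all genes lowest in Wnt9bKO 2 was not counted, so that these counts say nothing particular to the 10 genes. The summed neural crest mesenchyme markers had the order of those 6 genes, at 1060 CPM in Wnt9bKO 1, 628 CPM in Wnt9bKO 2 and 870 CPM in Wnt9bKO 3. Of the markers in the sum, *Prrx1*, *Prrx2*, *Twist1* and *Pdgfra* had this order and the others did not. *Sox9* was at 44.9, 63.2 and 69.6 CPM and *Tfap2b* at 73.4, 74.8 and 73.7 CPM. *Tfap2a* was at 13, 10.9 and 15.1 CPM and *Snai2* at 11.7, 5.6 and 11.8 CPM. Summed forebrain markers had the opposite order, at 109, 188 and 143 CPM. The part of tissue makeup in these differences was not tested.

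Of 12 genes tied to the lower jaw identity that this pathway gives, all tested, 1 was higher in Wnt9bKO, 2 were lower in DKO and 0 passed in Rspo2KO, with median log2 fold changes of 0.08, −0.07 and −0.25. Over all genes tested the shares that passed were 32.8% in Wnt9bKO, 27.5% in DKO and 0.0346% in Rspo2KO. *Gata3*, a transcription factor gene of the mandibular arch, was at 3.84 and 3.62 CPM in wt and at 11.8, 5.37 and 8.40 CPM in Wnt9bKO (1.20 ± 0.33, adjusted p = 0.013; without wt 1 or wt 2 it did not pass, with an adjusted p of up to 0.0981). In DKO *Gata3* was at 5.64, 7.10 and 6.92 CPM (0.81 ± 0.33, adjusted p = 0.084). *Barx1*, a homeobox gene of the proximal arch mesenchyme, was at 45.0 and 55.2 CPM in wt and at 23.1, 21.1 and 32.2 CPM in DKO (−0.98 ± 0.29, adjusted p = 0.0233; lost under 4 of 22 alternatives, each of them leaving out a library). It was at 30.5, 31.3 and 33.7 CPM in Rspo2KO (−0.66 ± 0.29, adjusted p = 0.39) and at 53.7, 18.5 and 34.6 CPM in Wnt9bKO (−0.49 ± 0.29, adjusted p = 0.213). *Gbx2*, a target of endothelin signaling in the mandibular arch, was at 4.11 and 4.71 CPM in wt, 3.15 to 3.54 CPM in Rspo2KO, 1.19 to 3.14 CPM in Wnt9bKO and 1.70 to 4.25 CPM in DKO, and did not pass (−0.83 ± 0.37 in Wnt9bKO, adjusted p = 0.102).

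Of 12 genes of the upper jaw and nasal processes, 3 were higher in Wnt9bKO, 4 were higher in DKO, 0 were lower in either and 0 passed in Rspo2KO, with medians of 0.28, 0.26 and 0.03. Of all genes tested, 16.8% were higher in Wnt9bKO and 14.3% in DKO. *Nr2f2*, a nuclear receptor gene of the maxillary mesenchyme, was at 48.3 and 46.5 CPM in wt, 91.0, 85.4 and 118 CPM in Wnt9bKO and 97.1, 85.0 and 121 CPM in DKO, with no overlap (1.05 ± 0.21, adjusted p = 0.00169, and 1.09 ± 0.21, adjusted p = 0.00179). *Pou3f3* is used in the maxillary process and is known to spread into the lower arch when *Dlx5* and *Dlx6* are lost. It was at 54.5 and 58.1 CPM in wt and, without passing, at 70.8, 77.3 and 62.8 CPM in Wnt9bKO (0.32 ± 0.12, adjusted p = 0.0526). In DKO it was higher, at 72.4, 88.9 and 73.6 CPM (0.47 ± 0.12, adjusted p = 0.00944). This call was lost without wt 1 and with an offset for GC content and length, with or without the replicate number as a block.

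**Figure D4:**
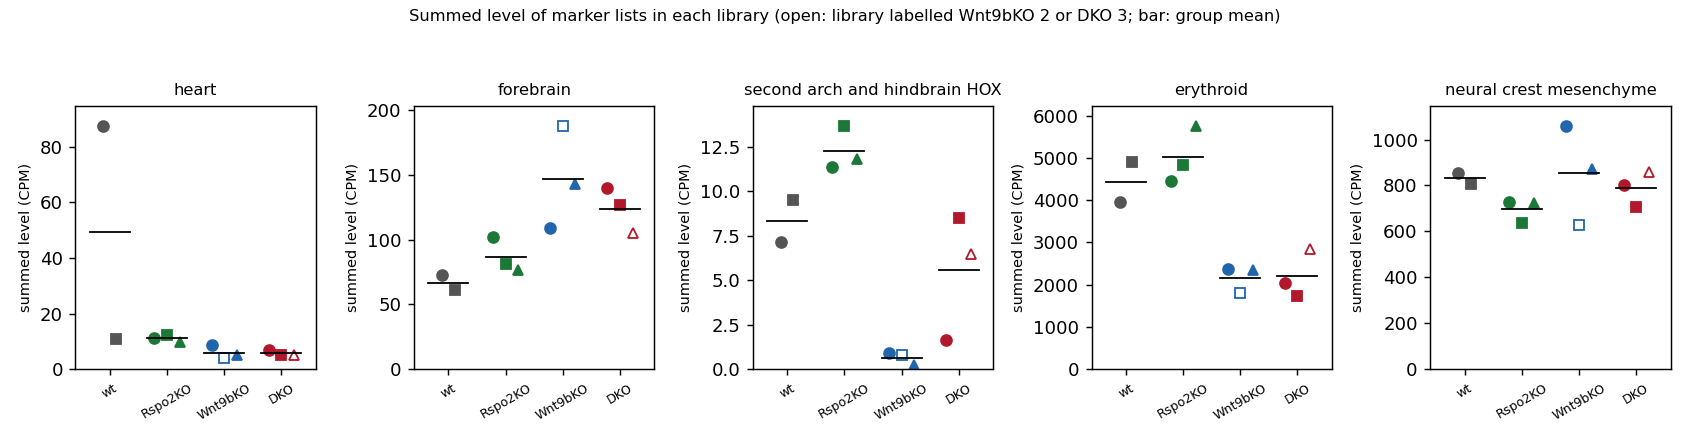
Summed level in CPM (vertical axes, from 0) of 5 marker lists in each of the 11 libraries by genotype, with symbols as in the plot of levels by library and bars for group means. Heart genes sum to 87.6 CPM in wt 1 and to at most 12.3 CPM elsewhere, forebrain genes are higher in all Wnt9bKO and DKO libraries than in wt, and HOX genes of the second arch and hindbrain sum to 0.24 to 0.905 CPM in Wnt9bKO against 7.15 and 9.54 CPM in wt.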

How the data were processed

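Libraries were made from total RNA of dissected facial processes of 4 genotypes, and the authors deposited counts, that is, unnormalized whole numbers of reads per Ensembl gene and library. Per the submitters' processing notes and the paper's methods, 50-base single-end reads were trimmed with Cutadapt, those under 30 bases were dropped, and the rest were mapped to GRCm38 with STAR and counted with HTSeq. Versions and the strand setting are not given in the sources used here. Genotype and replicate number came from the labels. The 11 libraries analysed here include 2 of wt, although the paper states 3 samples for every genotype; no other wt sample was analysed here.

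The genes, lists and comparisons were chosen with earlier results of these data known. All 10 genes are named. Of the lists (endothelin pathway, lower jaw, upper jaw and nasal, dorsoventral arch signals, HOX, heart, forebrain, neurons, surface epithelium, endothelium, erythroid, neural crest mesenchyme, sex), counts are given, and named are preset genes and the gene with the smallest p in a comparison with wt. *Ddx3y*, *Gsx2*, *Actc1*, *Nkx2-5*, *Prrx2*, *Twist1*, *Pdgfra*, *Tfap2a* and *Snai2* were named after their values were seen.

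Levels are counts per 1000000 after TMM scaling (factors 0.9152 to 1.096), divided by exon length for levels per kb. Genes were filtered with filterByExpr, and edgeR 4.0.16 (R 4.3.3) fitted a quasi-likelihood model with 1 mean per genotype to all 11 libraries. Tests were two-sided, Benjamini-Hochberg adjustment of p ran over the 17317 genes tested, and a gene passed with an adjusted p under 0.05. The study names p and a 1.5-fold change without saying whether p was adjusted; it was taken as unadjusted for the second rule. Alternatives, described in the closing section, include DESeq2 1.42.0. The fit was tested on simulated data before use. Exon length, overlap and GC content came from the GRCm38 GENCODE annotation. Total counts of 11136166 to 18017344 make 3 counts equal to 0.16 to 0.268 CPM, and such a floor covers counting error only. Figures were drawn with matplotlib 3.10.9.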

Additional observations from a re-analysis of the deposited data

How the results depend on the processing

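Each of the 60 changes of the 10 genes was refitted under up to 22 alternatives, 1304 values in all: 1182 kept their direction and their side of the threshold, 15 lost the call, 32 gained it and 75 turned direction. *Ednra* passed under 21 of 22 alternatives in Wnt9bKO and in DKO against wt (not without wt 1) and under 22 of 22 in DKO against Rspo2KO; *Dlx5* in Wnt9bKO passed under 19 of 22. The number of genes passing in DKO against wt, 1, became 2 with DESeq2, with the replicate block, with the offset for GC content and length, with that offset and the block, over autosomal protein-coding genes, or without both libraries in doubt, and 4 with no low-count filter or with only the compared groups in the fit. With no low-count filter, 4 passed in Wnt9bKO against wt and 1 in DKO against Wnt9bKO. Without both libraries in doubt, 1 passed in DKO against Rspo2KO, beside 16.7% of all genes. Leaving out 1 library at a time gave 0 to 4 in Wnt9bKO, 1 to 2 in DKO and 1 to 3 in DKO against Rspo2KO. Under RLE or upper-quartile factors, or a minimum of 10 counts in every library, these counts stayed within 1.5 times. In DKO against wt, 27.5% of all genes passed at the main setting and 25.6% without both libraries in doubt. With DESeq2 it was 28.3% of the genes with an adjusted p. The shares of all genes under the other alternatives are not given here, so that the counts say nothing particular to the 10 genes. The cause of the changes in these counts was not tested.

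Of 15 pairs of same-numbered libraries from different genotypes, 3 had a correlation of their deviations over 0.1, and all lay from −0.105 to 0.236. Their median was 0.066, against −0.024 for pairs with different numbers. Values this weak and few do not settle whether the numbers pair the samples. With the replicate block *Edn1* passed in DKO (1.21, adjusted p = 0.0342), and 2, 0, 2, 0, 2 and 0 genes passed in Wnt9bKO, Rspo2KO, DKO, DKO against Wnt9bKO, DKO against Rspo2KO and the interaction.

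Direction turned only in values that had not passed. For *Dlx1* in Wnt9bKO it was −0.04 with the block, −0.12 with the offset and −0.19 with both, and in DKO −0.04 with both. *Ednra* in Rspo2KO was −0.03 with the offset and −0.05 with both, and its interaction 0.01 and 0.02. With the offset *Dlx5* in Rspo2KO was 0.01 and *Hand2* in DKO 0.02. Without both libraries in doubt, *Gsc* in Wnt9bKO was 0.30, *Dlx3* in DKO −0.01, *Dlx1* in DKO against Wnt9bKO −0.10, *Dlx3* and *Hand1* in DKO against Rspo2KO −0.17 and −0.18, and the interactions of *Edn1*, *Dlx1* and *Dlx6* 0.26, −0.04 and −0.01.

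With 1 library left out, values that turned ranged as follows. In Wnt9bKO against wt, *Dlx1* lay from −0.24 to 0.24, *Hand1* from −0.01 to 0.58 and *Gsc* from −0.78 to 0.33. In Rspo2KO against wt, *Edn1* lay from −0.20 to 0.89, *Ednra* from −0.08 to 0.12, *Dlx1* from −0.08 to 0.01, *Dlx2* from −0.15 to 0.28, *Dlx3* from −0.35 to 0.44 and *Dlx5* from −0.55 to 0.31. In DKO against wt, *Dlx1* lay from −0.06 to 0.16, *Dlx3* from −0.01 to 0.46 and *Hand2* from −0.33 to 0.11. In DKO against Wnt9bKO, *Edn1* lay from −0.05 to 0.41, *Ednra* from −0.13 to 0.07, *Dlx1* from −0.14 to 0.31, *Dlx2* from −0.16 to 0.13, *Dlx3* from −0.39 to 0.10, *Dlx6* from −0.29 to 0.14 and *Gsc* from −0.77 to 0.32. In DKO against Rspo2KO, *Dlx1* lay from −0.02 to 0.21, *Dlx3* from −0.17 to 0.65 and *Hand1* from −0.18 to 0.59. The interaction lay from −0.74 to 0.36 for *Edn1*, −0.18 to 0.06 for *Ednra*, −0.10 to 0.35 for *Dlx1*, −0.34 to 0.09 for *Dlx2*, −0.56 to 0.26 for *Dlx3*, −0.52 to 0.34 for *Dlx5*, −0.46 to 0.31 for *Hand1*, −0.32 to 0.27 for *Hand2* and −0.59 to 0.51 for *Gsc*. The 9 to 37 counts of *Edn1* and 11 to 77 of *Hand1* limit their precision most.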

Other observations

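Among dorsoventral signals of the arch, 1 of 12 genes was higher in Wnt9bKO than in wt, 0 passed in DKO and 0 in Rspo2KO. That gene was *Notch2*, a receptor of the JAG1 signal of the upper arch (0.58 ± 0.13, adjusted p = 0.00428). HOX genes of the second arch and hindbrain were lower in Wnt9bKO, where 3 of 4 tested passed, led by *Hoxa2*, the selector gene of the second arch (−4.77 ± 0.65, adjusted p = 0.000137), and 0 of 4 passed in DKO, whose libraries summed to 1.64, 8.53 and 6.49 CPM. Erythroid genes were lower in both, 4 of 7 in Wnt9bKO, led by the embryonic globin gene *Hbb-y* (−1.25 ± 0.22, adjusted p = 0.000929), and 6 of 7 in DKO, led by *Hbb-bh1* (−1.14 ± 0.22, adjusted p = 0.00213). Of 8 neuronal genes, 1 was lower in Wnt9bKO and 3 were higher in DKO, of 8 surface epithelium genes 1 was lower in each, and of 8 endothelial genes 2 were higher in each, with 3 lower in Wnt9bKO and 2 in DKO. Of 8 neural crest mesenchyme genes, 2 were higher in Wnt9bKO, and 1 was higher and 1 lower in DKO. In Rspo2KO 0 genes of these lists passed, and of the 5 genes that mark the sex of the embryo 5 passed in Rspo2KO, 5 in Wnt9bKO and 1 in DKO. Of all genes tested, 32.8% passed in Wnt9bKO, 27.5% in DKO and 0.0346% in Rspo2KO. For the dorsoventral, surface epithelium and neural crest mesenchyme lists, the share passing in Wnt9bKO and in DKO was below that of all genes. The counts of these lists therefore say nothing particular to them.

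Among 10884 protein-coding genes with a mean of at least 5 CPM, those whose log2 levels over the 11 libraries were most like *Edn1* were *Arhgap44* (Pearson r = 0.959), *Gpld1* (0.936), *Sox1* (0.925), *Zic4* (0.923) and *Dcp1b* (0.923). Most like *Hand2* were *Vegfa* (0.914), *Lzts2* (0.902), *Gpat4* (0.889), *Kif1c* (0.888) and *Pdcd7* (0.871), and most like *Dlx5* were *Map7d1* (0.951), *Sox12* (0.945), *Arhgef17* (0.941), *Ciz1* (0.94) and *Unc45a* (0.94). The points share genotype, library and depth, and each list is the top of a long ranking.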
